A study of Rattus norvegicus with 6 samples.

Results

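The muscle miRNAs, often called myomiRs, are small regulatory RNAs that are abundant in skeletal and heart muscle. They were taken by name from the deposited count table, as every row of miR-1, miR-1b, miR-133a, miR-133b, miR-133c, miR-206, miR-208a, miR-208b or miR-499. This gave 10 of the 650 rows, with the rat prefix rno: rno-miR-1-3p, rno-miR-1b, rno-miR-133a-3p, rno-miR-133a-5p, rno-miR-133b-3p, rno-miR-133c, rno-miR-206-3p, rno-miR-208a-5p, rno-miR-499-5p and rno-miR-499-3p. They are named without that prefix from here on. The filter on low counts kept 8 of them and 463 of all rows. miR-208a-5p and miR-499-3p fell under it.

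The samples were trigeminal ganglia of Sprague-Dawley rats aged 8 to 10 weeks, taken from the operated side on day 14. For the 3 libraries labelled CCI-ION (chronic constriction injury of the infraorbital nerve), 2 loose silk ligatures had been tied around the left nerve, which carries sensation from the upper lip and whisker pad. The 3 sham libraries came from animals whose nerve was exposed on 1 side and not ligated, so exposure of the nerve was common to both groups. The labels do not state that a library is 1 animal. The p-values thus describe variation among libraries, part of which may be technical.

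A miRNA guides a silencing complex to messenger RNAs that pair with its seed, bases 2 to 8. miR-1 and miR-133a are transcribed together from shared precursors under the muscle regulators SRF, MEF2 and MyoD. miR-206 and miR-133b form a second such unit used in skeletal muscle. miR-208a and miR-499 are processed from introns of myosin heavy chain genes, Myh6 of heart and Myh7b of slow muscle and heart. The trigeminal ganglion itself holds sensory neurons and glia.

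Total miRNA counts were 6420434 to 12560545 per library, and 3 counts, taken as the detection floor, correspond to 0.239 to 0.467 CPM (counts scaled to a common library size). Replicate libraries all differed by more than counting noise. Neuronal markers (miR-124, miR-9a, miR-128 and miR-138, 10 rows) summed to 17251 to 20585 CPM in sham and 14404 to 18352 in CCI-ION. The sensory neuron markers miR-96, miR-182 and miR-183 summed to 35141 to 44703 and 34707 to 45644 CPM. Myelinating glia markers summed to 9537 to 10781 and 9069 to 10411 CPM.

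The mature sequences are shown first because the split of reads among these rows rests on single bases. Capitals mark the seed, and the letters are those of RefSeq, which match the deposited table.
miR-1b: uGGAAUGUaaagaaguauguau
miR-1-3p: uGGAAUGUaaagaaguguguau
miR-206-3p: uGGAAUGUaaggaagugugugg
miR-133a-3p: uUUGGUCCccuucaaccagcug
miR-133b-3p: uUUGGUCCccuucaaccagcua
miR-133c: cAGCUGGUugaaggggaccaa
miR-499-5p: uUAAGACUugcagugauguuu

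miR-1b, miR-1-3p and miR-206-3p share the seed GGAAUGU, which no other row of the table has. Counted from the 5′ end, miR-1-3p differs from miR-1b by A17G alone. miR-206-3p differs from miR-1b by A11G, A17G, A21G and U22G. The sequence that rat annotation calls miR-1b is the one known as miR-1 in human. miR-133a-3p and miR-133b-3p share the seed UUGGUCC and differ by G22A, the last base. Reads that were trimmed or misread at those bases could be assigned to the wrong row, so values of miR-1-3p, miR-1b, miR-133a-3p and miR-133b-3p are uncertain taken singly.

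In RefSeq's GRCr8 build, which is not the rn6 build used for mapping, miR-1b lies on the plus strand at chr3:187864736-187864757, in no other annotated gene. miR-1-3p (chr18:2160339-2160360) and miR-133a-3p (chr18:2157886-2157907) lie on the minus strand, with 2368 bases between their hairpins, inside the bounds of the plus-strand gene Mib1. miR-133c (chr18:2157886-2157906, plus strand) is the reverse complement of miR-133a-3p over all 21 bases, so it is read from the opposite strand of the same site. miR-206-3p (chr9:30590747-30590768) and miR-133b-3p (chr9:30594629-30594650) lie on the plus strand of a long non-coding RNA gene, LOC120094648. miR-499-5p (chr3:164570616-164570636) lies within Myh7b on the same strand.

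miR-1b dominated the group. It ranked 23 of 650 by mean CPM and made up 87.7% to 92.6% of the muscle miRNA counts of each library. It stood at 5026, 10480.4 and 9650.2 CPM in the sham libraries and at 3234, 8218 and 6265 CPM in the CCI-ION libraries, here and below in the order of their numbers 1, 2 and 3. The library numbered 1 was the lowest of each group, and the groups overlapped. Each CCI-ION library was below the sham library of the same number, by 0.64, 0.35 and 0.62 on the log2 scale in the order of the numbers.

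miR-499-5p, the slow muscle and heart miRNA, was the next most abundant, at rank 96. It stood at 407, 631 and 542 CPM in sham and at 342, 635 and 446 CPM in CCI-ION. The groups overlapped almost fully, and CCI-ION library 2 held the highest value of all 6. Its other strand, miR-499-3p, had 2, 0 and 1 counts in sham and 2, 0 and 0 in CCI-ION, at or under the floor in every library.

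miR-1-3p stood at 77.4, 78.1 and 114 CPM in sham and at 36.0, 116 and 40.5 CPM in CCI-ION. CCI-ION libraries 1 and 3 were below every sham library, whereas CCI-ION library 2 was above every one. miR-133a-3p, which represses SRF in myoblasts, stood at 63.6, 82.2 and 84.6 CPM in sham and at 39.2, 53.7 and 55.6 CPM in CCI-ION. Every CCI-ION library was below every sham library. miR-1-3p and miR-133a-3p ranked 190 and 201, and within each group their ranges overlapped each other.

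miR-206-3p, the member most restricted to skeletal muscle, stood at 21.0, 17.8 and 24.2 CPM in sham and at 14.2, 18.8 and 12.0 CPM in CCI-ION. CCI-ION library 2 was above sham library 2, so the groups overlapped. miR-133b-3p, made from the same transcript unit, stood at 9.92, 16.0 and 22.1 CPM in sham and at 18.7, 12.7 and 11.3 CPM in CCI-ION. Here the order of the libraries was different, with sham library 1 the lowest and sham library 3 the highest. These 2 levels were not separated by more than the spread between libraries.

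The remaining rows were near the limit of counting. miR-133a-5p, the other strand of the miR-133a hairpin, had 52, 54 and 53 counts in sham and 40, 30 and 26 in CCI-ION. There were 11.1 to 16.3 reads of miR-133a-3p for each of its reads. miR-133c had 19, 25 and 18 counts in sham and 11, 8 and 8 in CCI-ION, without overlap between groups in TMM-scaled CPM (1.43, 2.54 and 1.81 against 0.948, 1.29 and 1.08). The heart-associated miR-208a-5p had 6, 0 and 3 counts in sham and 1, 1 and 2 in CCI-ION, and no fold change is given for it. The plot of levels by library shows the 8 tested miRNAs.

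**Figure D1:**
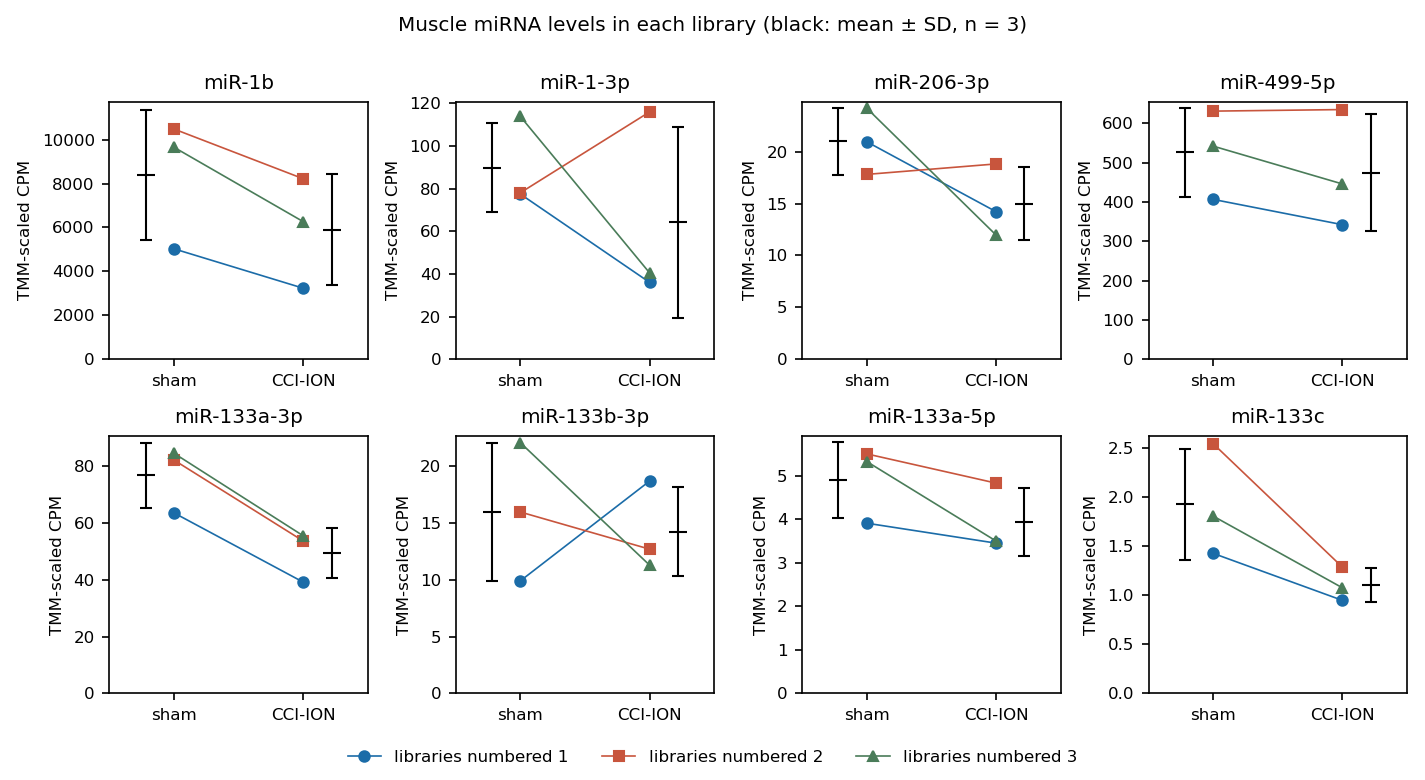
Level of each tested muscle miRNA (y axis, TMM-scaled CPM from 0) in sham and CCI-ION libraries (x axis); lines join libraries of the same number and black bars give mean ± SD over 3 libraries. miR-133a-3p and miR-133c have no overlap between groups, while miR-1-3p, miR-206-3p and miR-499-5p are higher in CCI-ION library 2 than in sham library 2.

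The question is how the injured side's ganglion differs from sham on day 14. All 8 tested muscle miRNAs had a log2 fold change below 0, where 48.8% of all 463 tested miRNAs did. Their median was -0.49, beside 0.01 over all tested miRNAs. None of the 8 was called by edgeR, where 0.432% of all tested miRNAs were called lower. At an unadjusted p under 0.05 edgeR gave 2 of 8 lower, miR-133a-3p and its antisense miR-133c, against 4.54% of all. miR-133a-3p was also under that unadjusted level with DESeq2 and with limma-voom, and after adjustment neither tool called any of the 8 without the block. In a whole ganglion, fewer cells of a type and less RNA per cell cannot be told apart.

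With the replicate number as a block, edgeR called 2 of the 8 lower and none higher, beside 5.62% of all tested miRNAs called lower. What that number stands for is not stated in the sources used here, and its use as a block rests on these same data. Over the 8 muscle miRNAs alone, deviations from the group means correlated at 0.04, -0.26 and -0.48 between same-numbered libraries. The blocked fit takes its error largely from all miRNAs (median prior of 54.5 against 2 residual degrees of freedom). Exchanging groups within 3 pairs allows no exact p below 0.25. miR-1b averaged 8386 ± 2939 CPM in sham and 5905 ± 2511 CPM in CCI-ION (SD over 3 libraries). With the block its log2 fold change was -0.54 ± 0.10 (SE), with an edgeR adjusted p of 2.69e-05. Without the block it was -0.51 ± 0.39 with an edgeR adjusted p of 0.833, and single libraries moved that value widely. It was -0.77 when sham library 1 was left out, -0.32 when sham library 2 was, -0.21 when CCI-ION library 1 was and -0.80 when CCI-ION library 2 was. miR-133a-3p averaged 76.8 ± 11.5 and 49.5 ± 8.95 CPM (SD over 3 libraries). With the block its log2 fold change was -0.64 ± 0.13, with an edgeR adjusted p of 0.000115. Without the block its log2 fold change was -0.64 ± 0.20 with an edgeR adjusted p of 0.316. The size of the difference was thus the same in both fits for miR-133a-3p, and its estimated error was smaller with the block. That error is worked out from the same F test as the p-value, so it is not separate evidence.

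DESeq2 and limma-voom with the block also called 2 members each, miR-1b and miR-133a-3p. Beside these, DESeq2 called 3.5% lower of the 486 rows it gave an adjusted p, and limma-voom 3.67% of the 463 tested. The adjusted p was 2.15e-05 with DESeq2 and 0.0128 with limma-voom for miR-1b, and 0.00026 and 0.0114 for miR-133a-3p. Both edgeR calls were lost when the libraries numbered 3 were left out (adjusted p of 0.123 for miR-1b and 0.0918 for miR-133a-3p), with log2 fold changes of -0.50 and -0.66. In that fit 0.858% of all tested miRNAs were called lower. Both edgeR calls held without the libraries numbered 1 (adjusted p of 0.0144 and 0.0162, with 4.19% of all called lower) and without those numbered 2 (0.0127 and 0.0327, with 3.23% of all called lower).

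The other 6 tested members were not called in either fit. miR-133c had the lowest value, -0.81 ± 0.34 (edgeR adjusted p = 0.482), on counts of 8 to 25. miR-206-3p was at -0.49 ± 0.22 (edgeR adjusted p = 0.496, and 0.0759 with the block). miR-1-3p was at -0.49 ± 0.45, miR-133a-5p at -0.33 ± 0.27, miR-133b-3p at -0.16 ± 0.33 and miR-499-5p at -0.15 ± 0.26. miR-1-3p was not called when single libraries were left out, but moved to -0.28 for sham library 3, -0.20 for CCI-ION library 1, -1.22 for CCI-ION library 2 and -0.22 for CCI-ION library 3. The signs of miR-133b-3p and miR-499-5p turned when single libraries were left out. For miR-133b-3p it was 0.15 when sham library 3 was left out and 0.0020 when CCI-ION library 3 was. For miR-499-5p it was 0.04 when CCI-ION library 1 was left out. The plot of fold changes sets both fits side by side.

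**Figure D2:**
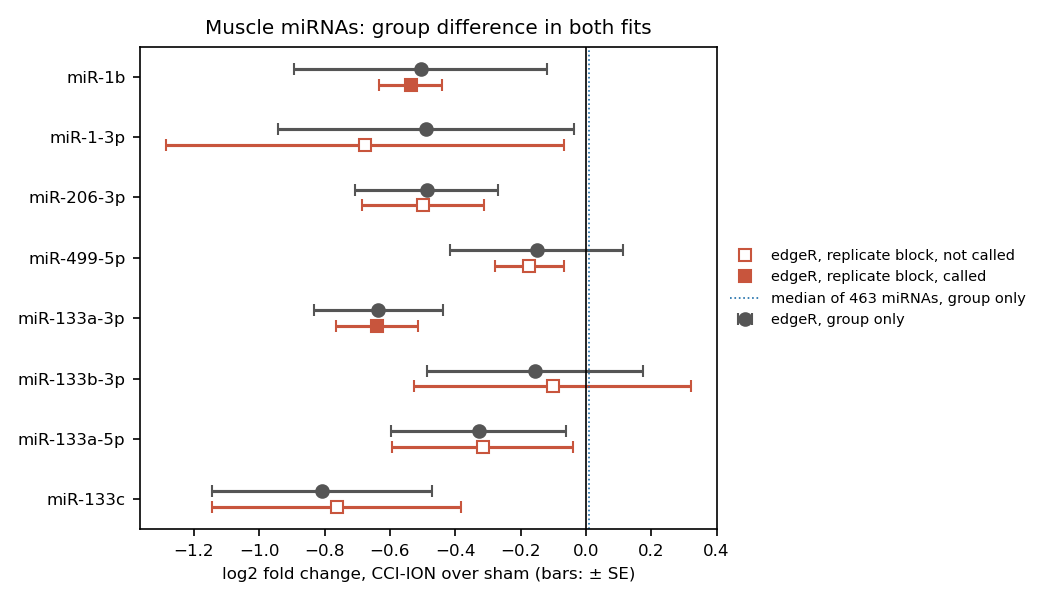
Log2 fold change of CCI-ION over sham (x axis, bars ± SE) for each tested muscle miRNA (y axis) in the edgeR fit with group only (grey circles) and with the replicate block (red squares, filled where called). All values lie below 0, and only miR-1b and miR-133a-3p are filled.

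Within same-numbered pairs, 4 of the 8 were lower in CCI-ION in 3 of 3 pairs (miR-1b, miR-133a-3p, miR-133a-5p and miR-133c), beside 23.5% of all tested miRNAs. miR-133a-3p, miR-133a-5p and miR-133c lie at 1 site, with r of 0.80 to 0.90 between them over the 6 libraries. They are thus not independent members. For miR-133a-3p the differences were -0.70, -0.61 and -0.61 in pairs 1, 2 and 3, the most even of the group. For miR-1-3p they were -1.104, 0.57 and -1.49. The pair numbered 2 was thus opposite to the other two for miR-1-3p. With the block miR-1-3p was at -0.68 and not called (edgeR adjusted p = 0.643). It was at -0.44 (0.857) without the libraries numbered 1, -0.27 (0.898) without those numbered 3, and called only without those numbered 2 (-1.29, edgeR adjusted p = 0.00822), a fit that leaves out the very pair that ran the other way. For miR-133b-3p the differences were 0.92, -0.33 and -0.97, so there the pair numbered 1 stood apart.

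**Figure D3:**
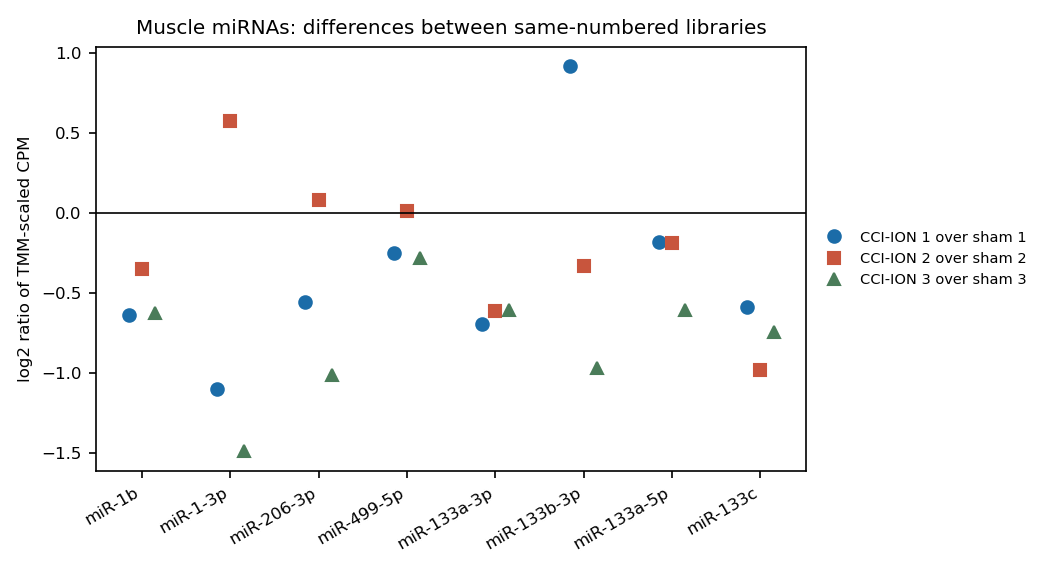
Log2 ratio of TMM-scaled CPM between the CCI-ION and the sham library of each number (y axis) for each tested muscle miRNA (x axis). The 3 points of miR-133a-3p lie together near -0.6, while those of miR-1-3p run from -1.49 to 0.57 and those of miR-133b-3p from -0.97 to 0.92.

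On 2 of the 8 miRNAs (miR-133a-3p and its antisense miR-133c) the groups did not overlap with CCI-ION lower, beside 7.13% of all tested miRNAs. On the deposited RPM scale this was so for 4 of 8, which added miR-133a-5p and miR-206-3p, beside 29.4% of all. The total that RPM is scaled to was larger than the sum of the table's counts, which came to 61.8% ± 8.25 of it in sham, against 49.0% ± 5.87 after CCI-ION (SD, 3 libraries each). Scaled to those totals, the median of the 8 was -0.87, beside -0.34 over all tested miRNAs. With the block on that scale edgeR called 5 of 8 lower (miR-1b, miR-133a-3p, miR-133c, miR-206-3p and miR-499-5p), beside 32.8% of all.

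Rows of near-identical sequence, with the antisense miR-133c, were also added up, so that a read given to the wrong one of them no longer mattered. The sum of miR-1-3p and miR-1b was 5104, 10559 and 9764 CPM in sham and 3269.7, 8334 and 6305 CPM in CCI-ION. The groups overlapped, with library 1 the lowest in each. The sum of miR-133a-3p, miR-133b-3p and miR-133c was 75.0, 100.8 and 109 CPM in sham and 58.9, 67.7 and 67.9 CPM in CCI-ION, without overlap. The exact permutation p was 0.4 for the miR-1 sum and 0.1, the smallest possible, for the miR-133 sum. Exchanging groups within pairs gave an exact p of 0.25 for each, again the smallest possible. When these sums replaced the rows in the table, edgeR called neither without the block (adjusted p of 0.828 and 0.381). With the block the miR-1 sum fell by 0.55 ± 0.09 (edgeR adjusted p = 4.31e-07) and the miR-133 sum fell by 0.55 ± 0.13 (edgeR adjusted p = 0.000335). miR-206-3p was called in that table too (-0.51 ± 0.18, edgeR adjusted p = 0.0354), so 3 of 5 were called lower, beside 7.61% of all 460 rows tested. The miR-1 sum is almost all miR-1b and the miR-133 sum mostly miR-133a-3p, so their calls largely repeat those of the single rows. Before the rows were summed, miR-206-3p was not called with the block (edgeR adjusted p = 0.0759).

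All 10 rows together held 0.595%, 1.097% and 1.03% of a sham library's miRNA counts, in the order of their numbers, and 0.388%, 0.877% and 0.660% of a CCI-ION library's. The 95% Wilson interval of the lowest share ran from 0.385% to 0.392%, and covers counting error only. The spread between libraries of a group was therefore far wider than counting error. CCI-ION libraries 2 and 3 were above sham library 1 (exact permutation p = 0.3 for the shares). The SD of the summed level over the 6 libraries was 0.61 on the log2 scale, beside a median of 0.30 over single tested miRNAs.

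Ratios within a library do not depend on its scaling. There were 68.1, 104.8 and 90.0 reads of the miR-1 pair for each miR-133 read in sham, and 55.5, 123.1 and 92.8 in CCI-ION. The log2 ratio of miR-133 over miR-1 averaged -6.43 ± 0.32 in sham libraries and -6.42 ± 0.58 in CCI-ION libraries (SD, n = 3; exact permutation p = 1). The share of miR-1-3p among reads of the miR-1 pair was 1.52%, 0.739% and 1.17% in sham and 1.102%, 1.39% and 0.642% in CCI-ION. The Wilson intervals of the lowest and the highest of these shares, 0.574% to 0.719% and 1.43% to 1.61%, did not overlap. The groups did overlap (exact permutation p = 0.7).

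miR-133b-3p made up 13.5%, 16.3% and 20.7% of the reads of miR-133a-3p and miR-133b-3p in sham, and 32.3%, 19.1% and 16.9% in CCI-ION. CCI-ION library 1 stood above the other 5, and the groups overlapped (log2 ratio -2.33 ± 0.37 against -1.82 ± 0.66, n = 3 each, exact permutation p = 0.4). The ratio of miR-499-5p to the miR-1 pair was the most even between pairs among the 4 ratios computed. Its log2 value averaged -3.96 ± 0.28 in sham libraries and -3.60 ± 0.30 in CCI-ION libraries (SD, n = 3; exact permutation p = 0.3). It was higher in CCI-ION in 3 of 3 pairs, by 0.39, 0.35 and 0.35, where exchanging groups within pairs gives an exact p of 0.25, the smallest possible. Adjusted over the 4 ratios tested, the permutation p-values were 0.8 to 1.

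**Figure D4:**
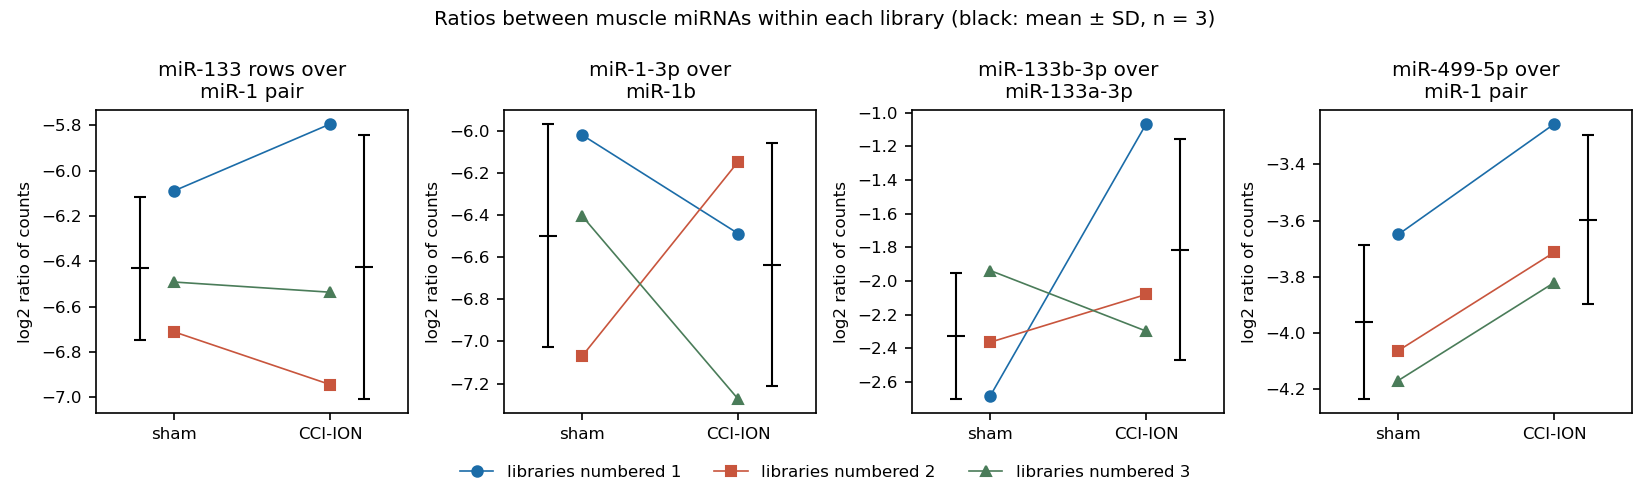
Log2 ratio of counts within each library (y axis) for 4 pairs of muscle miRNAs or their sums, in sham and CCI-ION (x axis); lines join libraries of the same number and black bars give mean ± SD over 3 libraries. The 3 lines of miR-499-5p over the miR-1 pair rise by 0.35 to 0.39, whereas the lines of miR-1-3p over miR-1b cross.

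A list of other miRNAs known from muscle or myogenesis (miR-26a, miR-27, miR-29, miR-486, miR-378a, miR-322, miR-503, miR-221 and others) had 29 tested rows outside the muscle group. With the block 2 of 29 rose and none fell, a share near the 6.05% of all tested miRNAs called higher in that fit, and without it none was called. The list's median log2 fold change was 0.04. The most abundant were miR-26a-5p, at 92151 ± 16292 and 94743 ± 13587 CPM, and miR-27b-3p, at 60499 ± 12337 and 54173 ± 11884 CPM. miR-221-3p, which falls as myoblasts differentiate, averaged 269 ± 20.2 and 373 ± 72.4 CPM and rose with the block (log2 fold change 0.45 ± 0.11; edgeR adjusted p = 0.00231, and 0.448 without it). miR-155-5p, better known from leukocytes, averaged 16.9 ± 2.47 and 26.8 ± 6.91 CPM and also rose with the block (0.63 ± 0.17; edgeR adjusted p = 0.00512, and 0.432 without it). DESeq2 with the block called both (adjusted p of 0.00694 and 0.0433), whereas limma-voom with the block called neither (0.055 and 0.0551).

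Marker lists of other cells were read in the same fits, against 5.62% of all tested miRNAs called lower and 6.05% called higher with the block. The rows named here were chosen because they were called. Of 9 tested neuronal rows none was called without the block, though all 9 had values below 0, with a median of -0.32. With the block edgeR called 4 of the 9 lower (miR-138-5p, miR-128-3p and both arms of miR-124). Of these, limma-voom with the block called miR-124-3p (adjusted p = 0.0232) and miR-128-3p (0.0312). DESeq2 with the block called miR-124-3p (0.00103), miR-128-3p (0.00205) and miR-138-5p (0.0241), but not miR-124-5p (0.161). Sensory neuron markers had 0 of 4 called in either fit.

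The 6 tested myelinating glia rows had a median log2 fold change of -0.003 without the block, and 3 were below 0. Of the 6 rows, 1 was called and was higher, miR-219a-1-3p. Its mean was 15.2 ± 2.08 CPM after CCI-ION against 4.77 ± 1.08 after sham surgery (SD over 3 libraries; log2 fold change 1.66 ± 0.24, edgeR adjusted p = 0.0239, and 3.81e-08 with the block). It was the only one of all tested miRNAs that edgeR called higher without the block. Called higher with the block alone were 1 of 5 leukocyte rows (miR-142-3p), 1 of 3 fibroblast rows (miR-199a-5p) and 1 of 7 epithelial rows (miR-205). limma-voom with the block also called miR-142-3p (adjusted p = 0.0246) and miR-205 (0.0135), but not miR-199a-5p (0.0864). DESeq2 with the block called miR-142-3p (adjusted p = 0.000507), miR-205 (0.000287) and miR-199a-5p (0.0134). Yet 4 of the 7 epithelial rows had values below 0 without the block, with a median of -0.06. Epithelial miR-375-3p was at -1.01 with the block. For it edgeR made no call (adjusted p = 0.213), whereas DESeq2 (0.0407) and limma-voom (0.0312) with the block called it lower. Leukocyte markers summed to 213 to 259 CPM in sham and 266 to 319 in CCI-ION. Markers of smooth muscle and mural cells (miR-143 and miR-145) had 0 of 4 called, and their sum ranged from 18517 to 27686 CPM in sham and from 17810.3 to 32002 in CCI-ION. Red blood cell markers (miR-451, miR-144 and miR-486) had 0 of 4 called, at 285 to 771 and 408 to 799 CPM. The part of these cell types in the muscle miRNA values was not tested, nor was that of muscle attached to the dissected tissue. Skeletal muscle's miR-206-3p was present in every library at 12.0 to 24.2 CPM. Heart's miR-208a-5p had at most 6 counts, and it was the only row of miR-208a, so its other arm could not be read.

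Over the 6 libraries, the miRNAs whose log2 CPM was most like that of the muscle sum were miR-9a-3p (Pearson r = 0.99), miR-154-5p (0.98), miR-137-3p (0.97), miR-338-3p (0.97) and miR-148b-3p (0.96), among 454 compared. After the group means were subtracted, the most alike were miR-335, miR-148b-3p, miR-140-5p, miR-200b-3p and miR-532-5p, each at r = 1.00. Without that subtraction, r with the sum was 0.94 for miR-499-5p, 0.84 for miR-133a-3p, 0.47 for miR-206-3p and 0.16 for miR-133b-3p. After it, the values in the same order were 0.96, 0.95, 0.23 and 0.10. These are descriptions of 6 libraries that share their scaling and the low values of the libraries numbered 1, and the sum is almost all miR-1b.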

How the data were processed

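Per the submitters' processing notes, the authors' tools for the reads included cutadapt 1.14 and Bowtie 1.1.1, with genome build rn6. Not given in the sources used here are the counter, the miRNA annotation and the handling of reads that match several miRNAs. The authors deposited raw counts for 650 mature miRNAs, with no name or sequence repeated, and RPM values for each library. The deposited RPM values equal the counts times 1 constant per library (100% of values whole within 0.01 read), and what the total behind that constant counts is not stated.

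Counts were tested over the whole table with edgeR 4.0.16 (TMM, filterByExpr, robust quasi-likelihood F test, group only) in R 4.3.3, with a Benjamini-Hochberg adjusted p under 0.05 as the call. DESeq2 1.42.0 and limma-voom (limma 3.58.1), other scalings and filters, summed rows, left-out libraries and the replicate block were alternatives. DESeq2 was run on all 650 rows with its own independent filtering. The edgeR procedure was also run on counts simulated from its own fitted model. Such a run cannot show whether the pairing or the model holds in these data. The exact permutation tests are two-sided; 3 libraries against 3 allow no p below 0.1, and exchanging groups within 3 pairs none below 0.25.

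Both groups carry replicate numbers 1 to 3. What these numbers stand for is not stated in the sources used here. Deviations from the group means correlated at 0.663, 0.607 and 0.476 between libraries numbered 1, 2 and 3 over the tested miRNAs. Between libraries of different numbers the values ran from -0.62 to 0.14. The numbers were therefore treated as pairing the libraries, a choice that rests on these same data. Over the 8 tested muscle miRNAs alone the same-numbered values were 0.04, -0.26 and -0.48. There the highest value was 0.77, between sham library 2 and CCI-ION library 3. The blocked fit has 2 residual degrees of freedom and a median prior of 54.5, against 4 and 3.3 without the block. Levels are TMM-scaled CPM. The SE given for edgeR is the absolute log2 fold change over the square root of F, so it restates the F test. Named beside the muscle miRNAs are the 5 most alike in pattern by each of 2 measures and, from a list of muscle-related miRNAs, the 2 most abundant and those called. The members and lists were chosen with earlier results of these data known.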

Additional observations from a re-analysis of the deposited data

How the results depend on the processing

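Without the block, 3 miRNAs of the whole table were called and 0 muscle miRNAs. DESeq2 called 10 of the whole table, edgeR without a filter 6, and edgeR scaled to the totals behind the RPM 6, and leaving out single libraries gave 1 to 7, with 0 muscle miRNAs in each of these. With the replicate block edgeR called 54, among them 2 muscle miRNAs. DESeq2 with the replicate block called 43 and 2, limma-voom 39 and 2, edgeR with upper quartile factors (chosen after seeing the data) 60 and 2, edgeR scaled to the totals behind the RPM 158 and 5, and edgeR with summed rows 64 and 3. The split of higher against lower calls with the block was 28 to 26 under TMM, 43 to 17 under upper quartile factors and 6 to 152 under the RPM totals. With the block and the libraries of 1 number left out, 5 to 45 were called (31 without the libraries numbered 2), 0 to 3 of them muscle miRNAs.

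Leaving out single libraries moved miR-133b-3p from -0.41 to 0.15 and miR-499-5p from -0.40 to 0.036, the latter with CCI-ION library 1 left out. With the block and 1 number left out, miR-133b-3p ran from -0.66 to 0.31, being above 0 without the libraries numbered 2 (0.016) or 3 (0.31). The ratio of miR-133 to miR-1 ran from -0.31 to 0.26, below 0 without sham library 2 (-0.13), sham library 3 (-0.02) or CCI-ION library 1 (-0.31). The ratio of miR-1-3p to miR-1b ran from -0.42 to 0.18, above 0 without sham library 1 (0.10) or CCI-ION library 3 (0.18). The cause was not tested. The summed level of the 10 rows (-0.51) ran from -0.83 without sham library 1 to -0.15 without CCI-ION library 1. Of 173 alternative values for single muscle miRNAs, 149 kept direction and side of the threshold, 19 were newly called and 5 changed sign.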
